A study of Mus musculus with 9 samples.

Results

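The genes of contractile smooth muscle described here are Acta2, Actg2, Myl9, Tpm1, Tpm2, Tagln, Cnn1, Cnn2 and Cald1, together with Srf, the gene of serum response factor. They were chosen by symbol, with earlier results of these data known, as 10 of the 36410 rows of the deposited table of ribosome footprints. All 10 symbols were found, and all 10 passed the filter on low counts, as did 12678 rows in all.

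Smooth muscle shortens when myosin filaments pull on filaments of alpha and gamma actin, and tropomyosin, calponin, transgelin and caldesmon lie along these filaments and stabilise them or set how myosin meets them. The genes of these proteins are classic targets of serum response factor (SRF), a transcription factor that binds a short DNA element called the CArG box. SRF works with partners: the myocardin-related factors MRTF-A and MRTF-B enter the nucleus when RhoA signalling builds actin filaments and draws down free actin monomer, whereas the ternary complex factors ELK1, ELK3 and ELK4 pair with SRF at immediate early genes. In the brain these contractile genes are best known from the mural cells of blood vessels, and they are also switched on in cultured mesenchymal cells that build stress fibres.

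Ribosome profiling sequences the mRNA pieces that a ribosome shields from nuclease, so a count follows how many ribosomes sit on an mRNA. Footprints were counted in 3 immortalized lines of mouse striatal cells, strain C57/BL6, with 3 libraries each. The control line (STHdhQ7/Q7) carries Htt with the short glutamine tract on both alleles, the HD-het line (STHdhQ7/Q111) has one knock-in allele with the expanded tract of Huntington disease, and the HD-homo line (STHdhQ111/Q111) has that tract on both alleles. Every culture had 10 min of cycloheximide, a drug that freezes ribosomes on the mRNA, before fragments of 26 to 32 nt were isolated from 80S monosomes. Each genotype was 1 line, so genotype and line cannot be told apart, and the spread between libraries, over 3 rounds of culture, is the error behind every p-value here. Library totals ran from 22504543 to 41888701 counts. Levels are given in CPM, counts scaled to equal library totals, per 1e6, with TMM factors, and a count of 3, the limit that a count of 0 allows, was 0.0716 to 0.133 CPM, covering counting error only. Matched mRNA was not used here, so fewer cells of a kind, less mRNA per cell and fewer ribosomes per mRNA cannot be told apart.

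The dopamine receptor genes that define mature striatal neurons, Drd1 and Drd2, were at 0 in all 9 libraries. Of 9 striatal neuron markers, 4 were tested, and the sum over all 9 was 180.3 to 196 CPM in HD-het libraries, 188 to 198 CPM in controls and 207 to 223 CPM in HD-homo libraries. That sum was mostly Tubb3, Map2 and Foxp1, while Bcl11b and Gad1 held at most 2 counts in any library. Its members did not move together. Against control, Ppp1r1b fell in HD-het (log2 -1.22), and Foxp1 rose in HD-het (0.36) and HD-homo (0.77). Markers of other cell types moved with the lines, and their part in the results below was not tested. Of 8 mural cell markers, 4 were tested, and the sum over all 8 was 73.1 to 141 CPM in HD-homo libraries, 70.7 to 125 CPM in controls and 548 to 772 CPM in HD-het libraries. The pericyte markers Kcnj8 and Higd1b were at 0 in every library. Pdgfrb, a growth factor receptor of mural cells and fibroblasts, had a mean of 45.9 CPM in controls, 354 CPM for HD-het and 56.3 CPM for HD-homo. The mural sum was nearly all Pdgfrb and Cspg4 (54.1, 271 and 56.3 CPM in control, HD-het and HD-homo). Notch3 was also highest in HD-het (1.86, 6.65 and 1.57 CPM), while Anpep rose in both mutant lines (log2 1.96 and 1.92 against control). Rgs5 and Abcc9 held at most 2 and 7 counts in any library. Of 7 fibroblast markers, 6 were tested, and the sum over all 7 was 27128 to 37659.7 CPM in HD-het libraries, 5742 to 9819 CPM in controls and 9183 to 12184 CPM in HD-homo libraries. That sum was nearly all Col1a1, Fn1 and S100a4, and its members did not move together. Col1a1, a collagen chain, and Fn1, fibronectin, were highest in HD-het (means of 16522 and 14078 CPM). Col1a2, a partner chain of Col1a1, was instead highest in HD-homo (88.9 CPM for HD-het and 1027 CPM for HD-homo, log2 1.89 and 5.41 against control), as were Dcn (7.30, 11.5 and 40.6 CPM), Pdgfra (3.81, 6.86 and 155 CPM) and Lum, which held at most 10 counts in any library. S100a4 was lowest in HD-het (2007, 683 and 2045 CPM). Of 8 striated muscle markers, 5 were tested, with sums of 84.8 to 91.5, 106 to 121 and 32.6 to 47.1 CPM for control, HD-het and HD-homo, and Myog was at 0 throughout. That sum was mostly Actn2 and Tnnt2, and its members did not move together. Against control, Actn2 rose in HD-het (log2 0.70), where Tnnt2 was not past the threshold (-0.23). In HD-homo, Actn2 (-0.52) and Tnnt2 (-2.86) fell, and Myh6 and Myh7 were past the threshold in neither mutant line. Of 6 neural progenitor markers, 4 were tested, with sums of 9583 to 9851, 8988 to 9818 and 5988 to 6521 CPM for the same lines, a sum that was mostly Vim, the gene of vimentin. The intermediate filament gene Nes had means of 400 CPM for control, 1086 CPM for HD-het and 7.01 CPM for HD-homo, and the transcription factor gene Pax6 of 17.3, 24.8 and 0.0759 CPM, so that both were highest in HD-het and lowest in HD-homo like the contractile genes. Sox2 had means of 51.2, 33.9 and 2.26 CPM. The astrocyte markers summed to 2.29 to 3.86 CPM in controls, 1.67 to 2.70 CPM in HD-het libraries and 11.6 to 13.8 CPM in HD-homo libraries. In HD-homo that sum was mostly Slc1a3 (mean 11.7 CPM). Endothelial and microglial markers summed to 2.22 CPM or less in every library.

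Contractile genes were highest in HD-het cells, intermediate in control cells and lowest in HD-homo cells. The 10 genes together took 1.10% to 1.18% of all counts in control libraries, 2.35% to 2.97% in HD-het libraries and 0.426% to 0.513% in HD-homo libraries, so the ranges of the lines did not overlap. By the quasi-likelihood test of edgeR at an adjusted p of 0.05, 9 of the 10 genes were higher in HD-het than in control and none was lower, also at an unadjusted p of 0.05 and with DESeq2. Over all genes tested, 31.0% were higher and 29.1% lower in that comparison, and since the genes were not chosen blind to these data, such shares are a description. In HD-homo cells 9 of 10 were lower than in control, against 22.3% of all genes (23.3% were higher), and 9 of 10 were lower than in HD-het, against 32.8%. Srf was past the threshold in no comparison, and the other 9 genes were called in all 3. The pattern of higher in HD-het and lower in HD-homo, which these 9 genes had, was found in 6.79% of all genes tested. Both comparisons used the same control libraries.

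The sizes differed widely among the genes. The median log2 fold change of the 10 genes was 1.18 for HD-het against control, -0.85 for HD-homo against control and -1.96 for HD-homo against HD-het, where the median of all genes tested was 0.02 in each. At least 2-fold changes were found for 7 genes upward in HD-het (13.9% of all genes), for 3 genes downward in HD-homo (8.27% of all genes) and for 9 genes downward from HD-het to HD-homo (16.2% of all genes). The libraries of the compared lines did not overlap in 8, 9 and 9 of the 10 genes in these comparisons, beside 71.2%, 55.5% and 69.5% of all genes. The genes past 2-fold in both, Acta2, Myl9 and Tagln, belong to a class that held 2.25% of all genes. In 8 of the 10 genes every HD-het library was above every control library, and every control library above every HD-homo library, an order found in 8.91% of all genes. The exceptions were Actg2 and Srf.

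**Figure D1:**
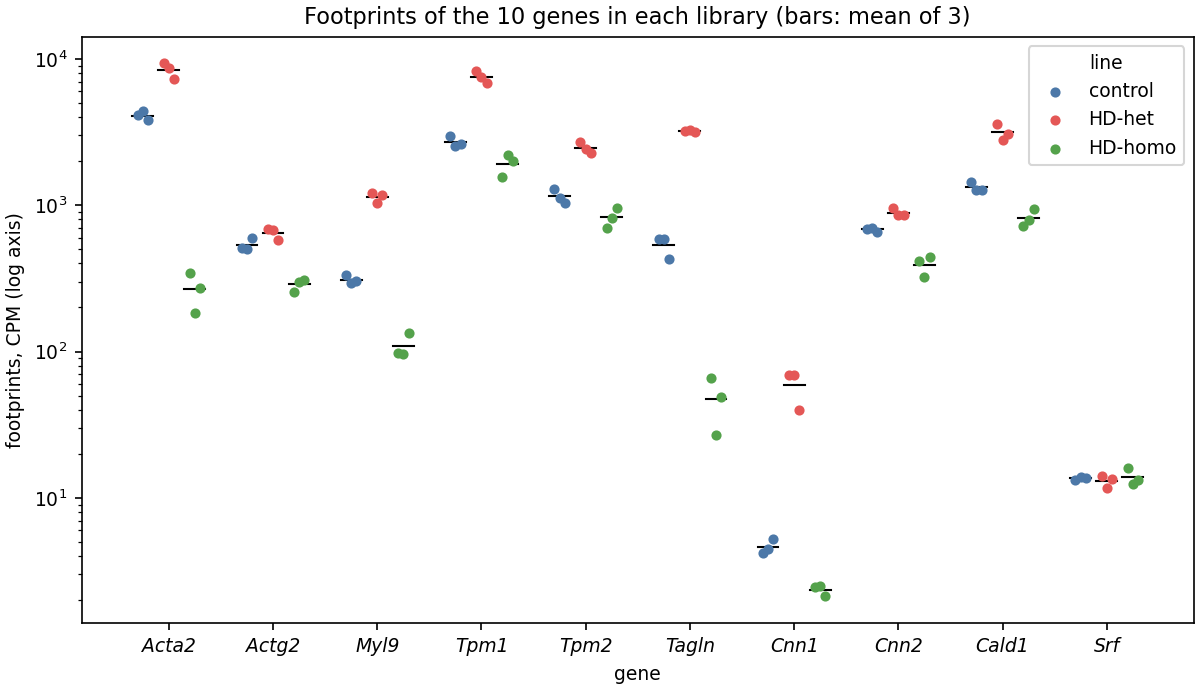
Footprints of each gene in CPM on a log axis, 1 point per library and a bar at the mean of each line of 3 libraries. Apart from Srf, with line means of 13.1 to 13.9 CPM, the HD-homo points lie lowest, and the HD-het points lie highest without touching the control points except in Actg2.

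The thin filament itself was the first class. Acta2 encodes smooth muscle alpha actin and lies at chr19:34240336-34255585 (GRCm38.p6). It was at 346, 184 and 272 CPM in HD-homo libraries, 4128, 4369 and 3803 CPM in controls and 9312, 8602 and 7251 CPM in HD-het libraries. The lowest HD-het library was above the highest control library, and all HD-homo libraries were far below both lines. Relative to control, Acta2 rose 2.05-fold in HD-het (log2 1.03, SE 0.19, edgeR adjusted p = 5.86e-04) and fell 15.3-fold in HD-homo (log2 -3.94, SE 0.21, edgeR adjusted p = 5.33e-08). Between the mutant lines the difference was 31.3-fold (log2 -4.97, SE 0.22, edgeR adjusted p = 9.38e-09).

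Actg2, the gamma actin of gut smooth muscle at chr6:83512909-83536251, moved much less. Its control libraries were at 513, 498 and 598 CPM, its HD-het libraries at 689.6, 673 and 574 CPM, and its HD-homo libraries at 255, 301 and 306 CPM. One HD-het library lay inside the control range, while all HD-homo libraries lay below it. The rise in HD-het was 1.20-fold (log2 0.27, SE 0.11, edgeR adjusted p = 0.0492), at the edge of the threshold, and did not survive leaving out HD-het replicate 1 (adjusted p = 0.180), HD-het replicate 2 (0.155), HD-homo replicate 3 (0.0548), or control replicate 1 (0.172) or 2 (0.166). It was also lost with total counts in place of TMM factors (0.134) and without the filter on low counts (0.0809). In HD-homo the fall was 1.87-fold (log2 -0.90, SE 0.11, edgeR adjusted p = 4.47e-05).

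Short footprints are hard to assign among actins, since the coding sequences of Acta2 and Actg2 are 84.0% identical, and how fragments that fit several genes were counted is not given in the sources used here. Of 1107 windows of 28 bases along Acta2, 4.16% occur unchanged in another gene's transcript, and for Actg2 the share was 3.35%. When up to 2 mismatches were allowed, 41.7% of the coding windows of Acta2 matched one of the other 5 actins. The stretch of 48 coding bases in which the muscle actins differ least shows how few bases separate a footprint of one gene from that of the other. It is printed from RefSeq GRCm38.p6 on the minus strand, at chr19:34241721-34241768 for Acta2 and chr6:83513039-83513086 for Actg2, with the 5 bases of Actg2 that differ from Acta2 in capitals:
Acta2: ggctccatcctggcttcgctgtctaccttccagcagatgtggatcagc
Actg2: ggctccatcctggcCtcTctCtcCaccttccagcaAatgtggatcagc

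Summed counts of the muscle actins Acta2, Actg2, Acta1 and Actc1 do not depend on how fragments were divided among these 4 genes. They can still depend on fragments that also fit Actb or Actg1, and on whether fragments with several fits were kept. Of the Acta2 windows above, 20 occur unchanged in Actb and 31 in Actg1, against 2 in Actg2 and 2 in Acta1. Acta1 shares 68 with Actb, whereas Actg2 shares 19 with Actc1, inside the sum. The sum was higher in HD-het by 0.89 on the log2 scale (SE 0.10, edgeR adjusted p = 2.22e-05) and lower in HD-homo with log2 -2.46 (SE 0.11, edgeR adjusted p = 1.05e-08). Of all actin counts, Acta2 took 36.7% ± 1.52 in HD-het cells, 19.7% ± 1.86 in controls and 1.93% ± 0.428 in HD-homo cells (SD over n = 3 libraries). The cytoplasmic actins of all cells moved less: Actb was at 6709 ± 789.9 CPM in HD-homo cells, 7002 ± 698 CPM in controls and 5453 ± 263 CPM in HD-het cells. For Actb 49.2% of windows of 28 bases occur unchanged in another gene's transcript, and for Actg1 100%. The counts of both, and shares of all actin counts, therefore depend on the unknown treatment of repeated fits.

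The motor's light chain and the tropomyosins followed the same order. Myl9 encodes the regulatory light chain whose phosphorylation turns smooth muscle myosin on, and lies at chr2:156775408-156781657. Its 3 control libraries were at 334, 293 and 303 CPM, its HD-het libraries at 1219, 1040.4 and 1171 CPM, and its HD-homo libraries at 97.4, 96.5 and 134 CPM. No library of one line reached the range of another. Myl9 rose 3.69-fold in HD-het (log2 1.88, SE 0.13, edgeR adjusted p = 7.37e-07) and fell 2.84-fold in HD-homo (log2 -1.51, SE 0.13, edgeR adjusted p = 2.86e-06). Among the 3 regulatory light chains counted, its share was 6.53% ± 0.823 in HD-homo cells, 12.9% ± 0.570 in controls and 33.5% ± 1.21 in HD-het cells.

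Tpm1, at chr9:67022590-67049672, and Tpm2, at chr4:43513726-43523583, encode tropomyosins, the coiled coils that run along the actin filament. Tpm1 was at 8289, 7537 and 6854 CPM in HD-het libraries, 2960.0, 2519 and 2606 CPM in controls and 1552, 2211 and 2003 CPM in HD-homo libraries. Tpm2 was at 699.6, 813 and 962 CPM in HD-homo libraries, 1296, 1126 and 1038 CPM in controls and 2721, 2424 and 2282 CPM in HD-het libraries. In both genes the 3 lines were separate, with the HD-homo libraries only a little under control. Tpm1 rose 2.80-fold in HD-het (log2 1.49, SE 0.13) and fell 1.40-fold in HD-homo (log2 -0.49, SE 0.13), with edgeR adjusted p = 3.95e-06 and 0.00939. Tpm2 rose 2.15-fold in HD-het (log2 1.10, SE 0.13) and fell 1.40-fold in HD-homo (log2 -0.48, SE 0.13), with edgeR adjusted p = 2.58e-05 and 0.00877. Tpm1 took 43.7% ± 0.502 of all tropomyosin counts in controls, against 60.1% ± 0.835 for HD-het and 39.0% ± 2.73 for HD-homo. The tropomyosin Tpm3, made in most cells, was past the threshold in no comparison (1426 ± 81.6, 1325 ± 57.2 and 1249.9 ± 85.6 CPM in control, HD-het and HD-homo).

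**Figure D2:**
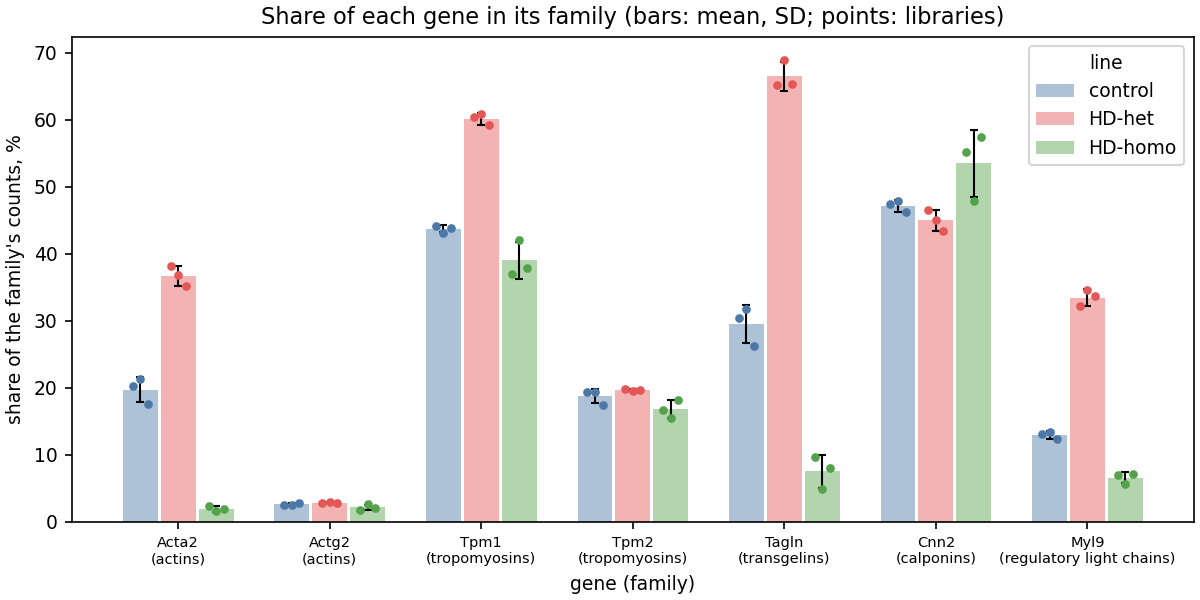
Share of each gene in the counts of its own family in percent, with bars at the mean of 3 libraries, error bars of 1 SD and points for the libraries; Cnn1 is not drawn. Acta2, Tpm1, Tagln and Myl9 take their largest share in HD-het and their smallest in HD-homo libraries, while Actg2, Tpm2 and Cnn2 differ little in comparison.

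The genes of filament-binding proteins differed in size, from Tagln to Cnn2. Tagln encodes transgelin (SM22 alpha), an actin-bundling protein used as an early marker of smooth muscle, and lies at chr9:45929628-45936058, overlapping Pcsk7 (mean 5.10, 8.20 and 4.94 CPM in control, HD-het and HD-homo). Its control libraries were at 587 and 587 CPM for replicates 1 and 2 and 429.5 CPM for replicate 3. The HD-het libraries were at 3223, 3271 and 3144 CPM, and the HD-homo libraries at 66.4, 27.0 and 49.3 CPM. The HD-het libraries agreed closely, whereas the HD-homo libraries had a coefficient of variation of 41.6%. Tagln rose 6.01-fold in HD-het (log2 2.59, SE 0.26, edgeR adjusted p = 8.79e-06) and fell 11.2-fold in HD-homo (log2 -3.49, SE 0.27, edgeR adjusted p = 1.23e-06). The mutant lines differed 67.4-fold (log2 -6.08, SE 0.30, edgeR adjusted p = 2.58e-08), the widest gap among the 10 genes. Of all transgelin counts Tagln took 66.5% ± 2.13 in HD-het cells, 29.5% ± 2.87 in controls and 7.52% ± 2.45 in HD-homo cells, where its paralog Tagln2 took 90.9%.

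Cnn1, the calponin of differentiated smooth muscle at chr9:22099221-22109221, had the largest rise among the 10 genes in HD-het cells. Its levels were 2.45, 2.49 and 2.13 CPM in HD-homo libraries, 4.20, 4.45 and 5.23 CPM in controls and 68.6, 69.0 and 39.96 CPM in HD-het libraries. HD-het replicate 3 stood below the others yet far above every control library. Cnn1 rose 12.8-fold in HD-het (log2 3.68, SE 0.21, edgeR adjusted p = 1.60e-07) and fell 1.95-fold in HD-homo (log2 -0.96, SE 0.23, edgeR adjusted p = 0.00554). It nevertheless stayed a small part of the calponins, with 0.320% of their counts in controls, 3.01% for HD-het and 0.324% for HD-homo.

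Cnn2, the calponin of many cell types at chr10:79988600-79995400, was at 415, 323 and 439.7 CPM in HD-homo libraries, 689, 700.0 and 659.8 CPM in controls and 951, 851 and 858 CPM in HD-het libraries. The lines did not overlap, although the gap between HD-het and control was narrow. Cnn2 rose 1.30-fold in HD-het (log2 0.38, SE 0.11, edgeR adjusted p = 0.0110), a call lost without HD-het replicate 1 (adjusted p = 0.0540), and fell 1.74-fold in HD-homo (log2 -0.80, SE 0.11, edgeR adjusted p = 1.20e-04). Cald1 encodes caldesmon, which binds actin, myosin and calmodulin, and lies at chr6:34598495-34775469. It was at 3595, 2796 and 3077 CPM in HD-het libraries, 1434, 1278 and 1264 CPM in controls and 719.9, 791 and 941 CPM in HD-homo libraries, with no overlap between lines. Cald1 rose 2.38-fold in HD-het (log2 1.25, SE 0.12, edgeR adjusted p = 7.47e-06) and fell 1.62-fold in HD-homo (log2 -0.70, SE 0.12, edgeR adjusted p = 6.45e-04).

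**Figure D3:**
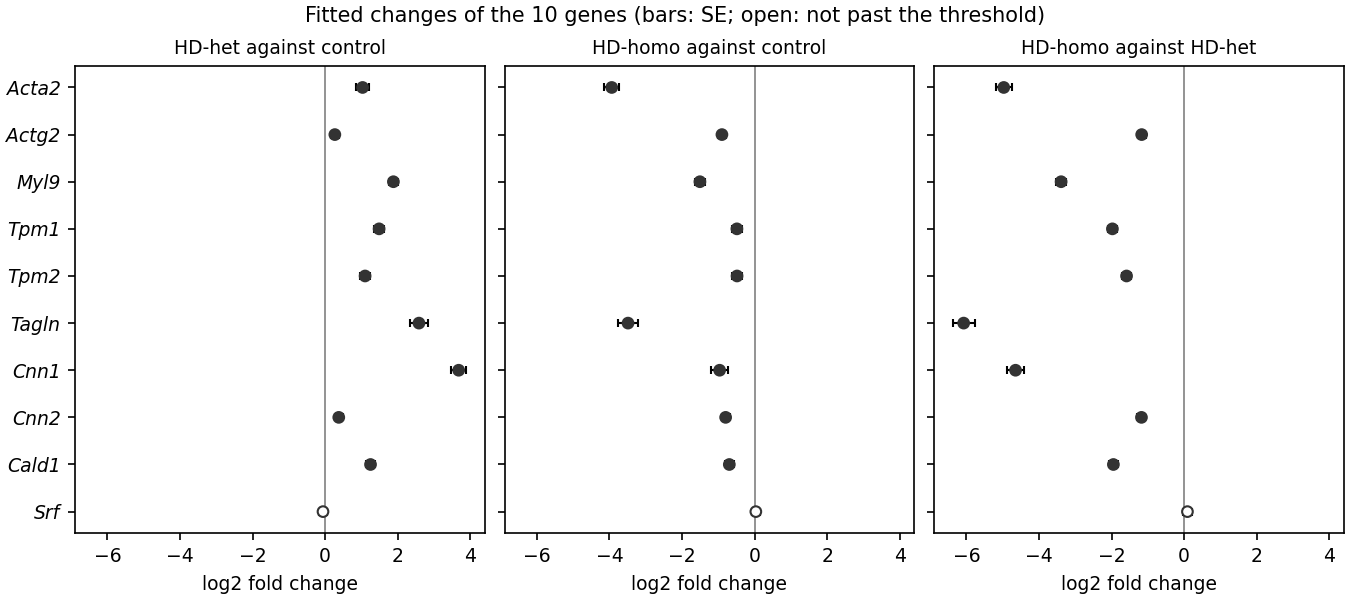
Fitted log2 fold changes of the 10 genes in the 3 comparisons, with bars of 1 SE and open circles where the gene was not past the threshold. In HD-het against control the called genes lie to the right of 0, from 0.27 for Actg2 to 3.68 for Cnn1, and in the other comparisons to the left, down to -6.08 for Tagln, while Srf sits near 0.

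Srf, at chr17:46546838-46558267, was at a low level. Its libraries were at 13.2, 14.0 and 13.8 CPM for control, 14.2, 11.8 and 13.5 CPM for HD-het and 16.1, 12.4 and 13.4 CPM for HD-homo. The 3 lines overlapped throughout. Its log2 fold change was -0.06 (SE 0.12) for HD-het and 0.03 (SE 0.12) for HD-homo against control, with edgeR adjusted p = 0.689 and 0.841, and 0.09 (SE 0.12) between the mutant lines with edgeR adjusted p = 0.511. These sizes leave room for small differences in either direction.

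Per kilobase of coding sequence, the scale on which levels of the 10 genes can be set side by side, means of 3 libraries were ranked. The length was that of a single RefSeq transcript per gene, 1611 bases for Cald1. Counts per gene do not tell transcript forms of different length apart, so the ranks hold for these lengths only. In control cells Acta2 led with 3616 ± 250.4 CPM per kb, followed by Tpm1 with 3152 ± 273, and these were close beside their spread. In HD-het cells Tpm1 was first with 8842 ± 839.7 CPM per kb, then Acta2 with 7397 ± 923 and Tagln with 5301 ± 106. In HD-homo cells Tpm1 (2248 ± 394 CPM per kb) and Tpm2 (965 ± 154) led, and Acta2 had dropped to rank 6 with 236 ± 71.4 and Tagln to rank 8 with 78.5 ± 32.6. Srf and Cnn1 were the last pair in control and HD-homo cells and Srf was last in HD-het.

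The genes also differed in how alike their patterns were. As a description over the 9 libraries, the root mean square difference of gene-centred log2 CPM was smallest between Tpm2 and Cald1 (0.16), Tpm1 and Cald1 (0.17) and Actg2 and Cnn2 (0.18), and largest between Tagln and Srf (2.58). Within HD-het, library 1 was above the line mean for all 10 genes and library 3 for 2 of them.

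**Figure D4:**
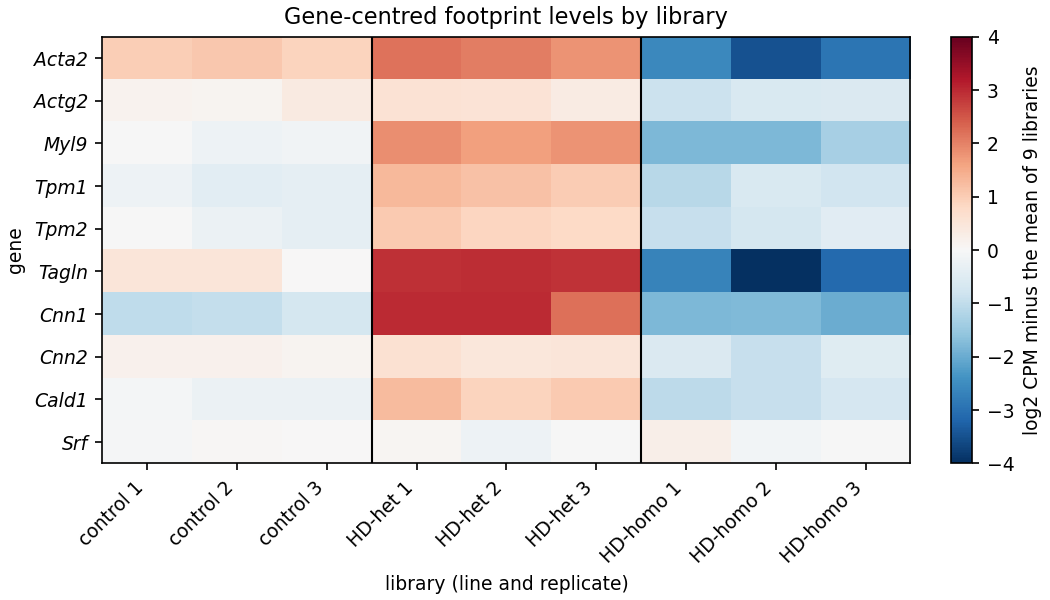
Log2 CPM of each gene (rows) minus its mean over 9 libraries, by library (columns), with black lines between control, HD-het and HD-homo. Tagln, Acta2, Cnn1 and Myl9 have the strongest colours, from red in HD-het to blue in HD-homo libraries, Actg2 and Cnn2 have pale ones, and Srf has almost none.

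CArG boxes were looked for in the RefSeq promoters (GRCm38.p6), windows of 250 bases before to 50 bases after each start site, which had entries for 8 of the 10 genes; Tagln and Actg2 had none. The CArG box reads alike on both strands. An exact box stood in 3 of the 8 genes, Myl9, Cnn2 and Srf, beside 1.81% of all 27025 genes with promoters (1.63% of all 32851 promoters). A box with 1 mismatch stood in 5 of the 8 genes, beside 22.5% of all genes (19.9% of all promoters). The exact boxes are shown with the Acta2 near matches because these genes span the called and uncalled members. Each line gives 30 bases with the box in capitals, at chr2:156775293-156775322 (+), chr10:79988534-79988563 (+), chr17:46556225-46556254 (-), chr17:46556205-46556234 (-), chr19:34255438-34255467 (-) and chr19:34255388-34255417 (-), in order:
Myl9: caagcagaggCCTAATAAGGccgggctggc
Cnn2: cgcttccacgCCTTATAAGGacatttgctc
Srf upstream box: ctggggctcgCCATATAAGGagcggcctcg
Srf downstream box: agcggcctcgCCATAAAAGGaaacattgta
Acta2 upstream near match: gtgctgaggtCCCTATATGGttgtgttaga
Acta2 downstream near match: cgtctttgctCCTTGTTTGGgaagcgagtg

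The first base of the box lies 161 bases before the start site for Myl9, 56 for Cnn2, 82 and 62 for Srf, and 84 and 34 for the near matches of Acta2. Genes with an exact box included Srf, called in no comparison, Cnn2, with small changes, and Myl9, with large ones, whereas Tpm2 and Cnn1 had neither kind of match in these windows. A match describes letters in a window and shows no binding.

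The route that leads to SRF was measured too, as a list of 16 cofactors and RhoA pathway genes of which 15 were tested. In HD-het 4 of the 15 were higher and 7 lower than in control, beside 31.0% and 29.1% of all genes. In HD-homo none was higher and 7 were lower with edgeR, beside 23.3% and 22.3% of all genes, where 2 were higher at an unadjusted p of 0.05 and none with DESeq2. The median log2 fold change was -0.02 and -0.34, beside 0.02 for all genes in each comparison. Mkl1, which encodes MRTF-A, was at 51.6 ± 8.41 CPM in HD-homo cells, 70.6 ± 3.39 CPM in controls and 37.3 ± 1.48 CPM in HD-het cells, lower in both mutant lines (log2 -0.92 and -0.45, edgeR adjusted p = 4.09e-05 and 0.00678). Mkl2, which encodes MRTF-B, was past the threshold in none of the 3 comparisons of the reported fit (22.9, 26.5 and 27.0 CPM in control, HD-het and HD-homo). Myocd, the gene of myocardin, the smooth muscle and heart partner of SRF, was too low to be tested, at 0.297, 0.119 and 0.144 CPM.

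Some other members of the route moved in opposite ways. Rock2, a kinase that RhoA activates, rose in HD-het (log2 0.74) and fell in HD-homo (-0.82) relative to control. Elk4 rose in HD-het (0.86) while Elk3 fell (-1.11), and neither was past the threshold in HD-homo. Limk2, a kinase that inactivates cofilin, fell in both HD-het (-0.44) and HD-homo (-0.86). Cfl1, which encodes cofilin and had the highest mean CPM of the list over the 9 libraries (not scaled for length), also fell in both HD-het (-0.64) and HD-homo (-0.38). A list of 10 SRF targets that use the ternary complex factors, the immediate early genes, gave 3 higher and none lower in HD-het with edgeR, near the 31.0% of all genes that were higher, and 2 higher and none lower in HD-homo, beside 23.3% and 22.3%. At an unadjusted p of 0.05 the lower genes numbered 1 in HD-het and 0 in HD-homo, and DESeq2 called none. The counts turned on single libraries: against control, HD-homo had 1 higher and 3 lower without HD-homo replicate 2, and 4 higher and none lower without HD-homo replicate 1. Without HD-homo replicate 2, HD-het had 4 higher and 2 lower. Egr2, a zinc finger factor, rose in both (log2 1.64 and 1.38). Junb rose in HD-homo (0.96, edgeR adjusted p = 0.0221), where its libraries varied widely (358 ± 183 CPM), a call that went when HD-homo replicate 2 (0.0923), control replicate 1 (0.0588) or control replicate 2 (0.0639) was left out, or when the replicate number entered the fit as a block (0.0529). Between the mutant lines, Ier2 was higher in HD-homo by 0.54 on the log2 scale, as was Elk3 of the cofactors by 0.97.

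**Figure D5:**
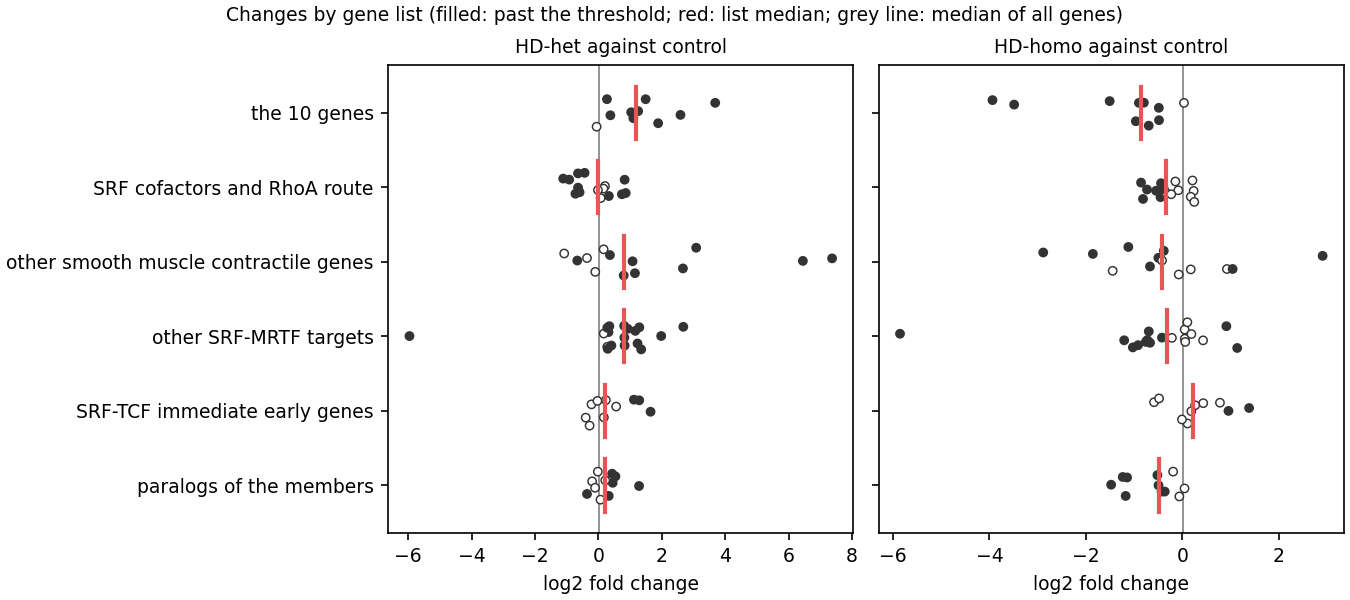
Log2 fold changes by gene list in HD-het against control and HD-homo against control, 1 circle per tested gene, filled where past the threshold, with a red bar at each list's median and a grey line at the median of all genes. The 10 genes, the other smooth muscle genes and the other SRF-MRTF targets have medians to the right in HD-het and to the left in HD-homo. The median of the cofactor list lies near the grey line in HD-het. Some of the other smooth muscle genes passed the filter on low counts only through HD-het, so the median of that list supports nothing about it.

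Of 18 further genes that SRF and the MRTFs are known to drive, 15 were higher and 1 lower in HD-het than in control, beside 31.0% and 29.1% of all genes. In HD-homo 2 were higher and 9 lower, beside 23.3% and 22.3%. Their median log2 fold change was 0.81 and -0.32 in these comparisons. Like the other lists here, this one was chosen with earlier results of these data known, so these shares are a description. Ctgf, a secreted matricellular protein, had the highest mean CPM of the list over the 9 libraries through HD-het, while Myh9 was above it in control (3857 CPM) and HD-homo (2878 CPM), again without scaling for length. Ctgf was at 1801 ± 676 CPM in control and 7099.7 ± 2271 CPM in HD-het cells (log2 1.98). Filip1l, named for an interaction with filamin, rose in both mutant lines (2.68 and 1.14). Fhl1, a LIM protein of muscle, rose in HD-het (1.23) and fell to 9.39 ± 0.804 CPM in HD-homo (-5.86), against 545 ± 37.9 CPM for controls. Ankrd1, a cardiac and stretch response gene, ran the other way, at 4.10 ± 1.63 CPM in HD-het cells (log2 -5.96), 248 ± 13.8 CPM in controls and 257 ± 114 CPM in HD-homo cells (log2 0.05, edgeR adjusted p = 0.903).

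Of 15 other smooth muscle contractile genes, 13 were tested. Relative to control, 8 were higher and 1 lower in HD-het, beside 31.0% and 29.1% of all genes. In HD-homo 2 were higher and 6 lower, beside 23.3% and 22.3%. The medians were 0.80 and -0.42, beside 0.02 for all genes in each comparison. Some of these genes, Itga8 and Pgm5 among them, passed the filter on low counts only through HD-het, so these counts and medians support nothing about the list. One of the 2 higher in HD-homo was Pgm5, with at most 3 counts in any HD-homo library. When at least 10 counts were required in every library, 6 genes were tested, of which 3 were higher and 1 lower in HD-het and 0 higher and 5 lower in HD-homo, with medians of 0.16 and -0.58. Shares of all genes under this filter are not given, so these values are a description only. Myh11, the heavy chain of smooth muscle myosin, was at 62.4 ± 6.15 CPM in HD-homo cells, 81.6 ± 1.42 CPM in controls and 105 ± 9.31 CPM in HD-het cells, with log2 0.36 for HD-het and -0.38 for HD-homo against control (edgeR adjusted p = 0.00591 and 0.00613). Csrp1, a LIM protein with the highest mean CPM of the list over the 9 libraries, rose in HD-het (1.15) and fell in HD-homo (-1.12), and Nexn, an actin-binding protein, rose in HD-het (0.80) and fell in HD-homo (-1.86). Smtn, the smoothelin gene, fell in both (-0.67 and -0.50). Itga8, an integrin, was at 11.1 ± 0.766 CPM in HD-het cells against at most 4 counts in any control or HD-homo library. Pgm5, a muscle adhesion protein, held at most 1 count in any control library, and its HD-het level of 1.29 CPM was at least 12.9-fold higher than the floor of 3 counts.

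The nearest relatives of the 10 genes, 11 paralogs outside the list, gave 5 higher and 1 lower in HD-het, beside 31.0% and 29.1% of all genes. In HD-homo none was higher and 8 were lower with edgeR, beside 23.3% and 22.3%, and none was higher there at an unadjusted p of 0.05 or with DESeq2. Their median log2 fold change was 0.22 and -0.49. Tagln3 rose (1.28) in HD-het and fell (-1.48) in HD-homo, Actg1, with the highest mean CPM of them over the 9 libraries although Actb was above it in HD-homo, fell in HD-homo (-0.49), and Actb fell in HD-het (-0.36). Cnn3, which together with Cnn2 held nearly all calponin counts, rose (0.43) in HD-het and fell (-1.18) in HD-homo.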

How the data were processed

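The authors deposited whole-number footprint counts for each symbol and library, neither normalized nor pooled. Per the labels, their processing used cutadapt, Bowtie 1.0.1 and build mm10; the counting program, annotation, strand and treatment of repeated fits are not given in the sources used here. All 9 columns matched a sample by name. In R 4.3.3, edgeR 4.0.16 with limma 3.58.1 fitted all 9 libraries with glmQLFit (TMM factors, filterByExpr), and glmQLFTest gave the tests. P-values were adjusted by Benjamini-Hochberg over 12678 genes, threshold 0.05. SE is the log2 fold change divided by the root of F. The members and lists were chosen with earlier results of these data known. Named are all members, Myocd, Mkl1, Mkl2 and Myh11, per list the most abundant gene and, in each comparison, the largest rise and fall at 10 CPM or more, and the 3 genes nearest to Acta2 and Tagln. Tpm3, Cnn3, Pgm5 and marker genes were named after their values were seen. Positions, coding lengths and promoters came from RefSeq GRCm38.p6, transcripts for the window scan from GENCODE M21. The fit was tested on simulated data. Alternatives included DESeq2 1.42.0.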

Additional observations from a re-analysis of the deposited data

Results flagged for a closer look

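Called in opposite directions against control in the 2 mutant lines, 9 of the 10 genes were marked for a closer look. Since genes with opposite calls were picked, the difference between the mutant lines follows from the choice and is given as a description. The log2 fold change of HD-homo against HD-het was -4.97 for Acta2, -1.17 for Actg2, -3.39 for Myl9, -1.98 for Tpm1, -1.59 for Tpm2, -6.08 for Tagln, -4.65 for Cnn1, -1.17 for Cnn2 and -1.95 for Cald1. All 3 HD-homo libraries were below all 3 HD-het libraries in each of these 9 genes. The values of these lines did not overlap, in either direction, in 69.5% of all genes.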

How the results depend on the processing

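Of 546 values of the 10 genes under the alternatives, 523 kept their direction and side of the threshold of their setting. Another 19 no longer passed it, among them the Actg2 and Cnn2 calls in HD-het described above. Stricter cutoffs on the unchanged fit gave 8 of the 19 (at least 2-fold) and 2 (adjusted p under 0.01). The 546 values include 6 of the summed muscle actins, entered under both Acta2 and Actg2. Some values not called in the reported fit changed sign in a few settings, and 2 of them were called in another: Junb between the mutant lines (0.73, edgeR adjusted p = 0.00382) and Elk3 in HD-homo against control (-0.34, edgeR adjusted p = 0.0449), both without HD-homo replicate 1. Of 1184 values of 22 list genes, 17 gained a call. Among them were Mkl2 in HD-het against control (0.26, edgeR adjusted p = 0.0474 without HD-het replicate 1) and Egr2 between the mutant lines (-0.63, edgeR adjusted p = 0.00777 without HD-homo replicate 3). Ier2 in HD-het against control gained one in several settings (-0.28, edgeR adjusted p = 0.0164 without HD-homo replicate 1). When 1 library at a time was left out, Srf ran from -0.13 to 0.0018 in HD-het against control, from -0.084 to 0.11 in HD-homo against control and from -0.022 to 0.18 in HD-homo against HD-het. Leaving out libraries gave, in HD-homo against control, -0.35 to 0.30 for Ankrd1 (and -0.015 with the replicate block), -1.73 to 0.67 for Itga8, -0.12 to 0.034 for Actb and -0.34 to 0.022 for Elk3. In HD-homo against HD-het the same step gave -0.044 to 0.067 for Mkl2 (and -4.97e-04 with only the libraries compared) and -0.024 to 0.73 for Junb.

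With a change of at least 2-fold, 2636 genes were called in HD-het against control, 2182 in HD-homo against control and 3460 between the mutant lines, and 3 of the 10 genes were lower in HD-homo than in control. Some list medians moved by more than the replicate spread. The filters and DESeq2 change the genes tested, and apart from this the cause was not tested. With DESeq2, 16 cofactors and 15 other smooth muscle genes were tested, in place of 15 and 13. For the cofactors in HD-het against control they were -0.26 with no filter and -0.22 with DESeq2. For the other smooth muscle genes the HD-het median against control was 0.54 with no filter and 0.16 with at least 10 counts in every library. Between the mutant lines it was -1.52 with no filter, -0.69 with 10 counts, -1.60 with DESeq2 and -2.29 to -1.95 with 1 library left out. Leaving out 1 library gave -1.42 to -1.20 for the SRF-MRTF targets between the mutant lines, and for the paralogs 0.089 to 0.30 in HD-het against control and -0.54 to -0.33 between the mutant lines.

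A pairing by replicate number was not seen: 9 correlations of same-numbered deviations ran from -0.356 to 0.175, and 3 of 9 libraries correlated best with their own number. With 3 libraries per line, this check cannot exclude a pairing. With the replicate block, 7463 genes were called in HD-het against control in place of 7620, and Actg2 (0.27) lost its call there (edgeR adjusted p = 0.0742), as did Junb in HD-homo against control (0.90, edgeR adjusted p = 0.0529).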

Other observations

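Among 7923 genes with a mean of at least 10 CPM, those whose gene-centred log2 CPM over the 9 libraries was closest to that of Acta2 were Flt1, a receptor for vascular endothelial growth factor (root mean square difference 0.28), Adamts12, a secreted protease (0.33), and Pde3b, a phosphodiesterase (0.34). Flt1 was at 6.71 ± 2.52 CPM in HD-homo, 101 ± 19.9 CPM in control and 204 ± 41.2 CPM in HD-het cells. Closest to Tagln were Tenm4, a teneurin (0.33), Bmper, a secreted regulator of bone morphogenetic proteins (0.34), and Lama2, a laminin chain (0.38). Bmper was at 3.18 ± 1.72, 36.8 ± 7.94 and 179 ± 24.5 CPM in the same lines. These are descriptions of likeness, without a test.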
